A study of Mus musculus with 6 samples.

Results

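The collagen chain genes were taken as the protein-coding genes whose GENCODE M21 symbol reads Col, a number, a and a number, without Col17a1. Of 49315 genes in the deposited count table, 43 met this rule. Gene-level read counts came from RNA of immortalized mouse keratinocytes, the epithelial cells of the epidermis, in 3 libraries of MK-546-ha3A (named 3A here) and 3 libraries of MK-546 (Control). The 3A cells are MK-/- cells reconstituted with human integrin α3 (MK-/-:ha3), and Control cells are MK-/- cells, which lack the α3 subunit, so the loss of mouse α3 is shared by both groups. All cells were untreated and grew on collagen-coated dishes, so collagen protein was supplied to both lines. Each group is 1 cell line, and α3 expression and descent of the line cannot be told apart. Whether the replicates came from separate cultures is not stated, so the p-values cover the spread among these libraries, and that spread may be technical. In RNA from whole cultures, fewer cells of a type and less RNA per cell cannot be told apart.

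Collagens are trimers of chains that wind into a triple helix, and each chain has its own gene. Fibrillar collagens such as types I, III and V build the fibres of the dermis, network-forming type IV is the main collagen scaffold of basement membranes, and type VII makes the anchoring fibrils that tie the epidermal basement membrane to the dermis. Integrin α3β1, the receptor that differs between the lines, binds laminins of that same basement membrane. In skin most fibrillar collagen is made by fibroblasts, whereas keratinocytes are known for making types IV, VII, XVII and XVIII.

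Total counts ranged from 34177002 to 36245240 in 3A and from 25634204 to 30919348 in Control. Itga3, the altered gene, had 2807, 2633 and 2064 counts in 3A 1 to 3 and 1007, 1220 and 1062 counts in Control 1 to 3, but reads from the human transgene may be counted on the mouse gene and the deleted part was not analysed here, so these counts check neither line. Keratinocyte markers were abundant, with 9 of 9 tested and a summed level of 7535 to 9411 CPM (read counts scaled to library size) in 3A and 9975 to 11539 CPM in Control. Fibroblast markers were near 0, with 3 of 9 tested and a sum of 2.11 to 2.87 CPM in 3A and 1.49 to 2.03 CPM in Control, and Lum had no count in any library. Of 4 smooth muscle or pericyte markers 1 was tested, with a sum of 0.167 to 0.315 CPM in 3A and 0.697 to 1.74 CPM in Control. Of 4 endothelial markers 1 was tested, with a sum of 0.418 to 0.946 CPM in 3A and 0.412 to 0.467 CPM in Control. Of 4 melanocyte markers 1 was tested, with a sum of 0.602 to 0.752 CPM in 3A and 1.27 to 1.67 CPM in Control, and none of 3 leukocyte markers was tested. Among these markers Fbn1 was called higher in 3A, and Myh11, Pmel, Trp63 and Perp were called lower. Fbn1 had 49 counts in 3A and 5 in Control, and Myh11 had 15 in 3A and 57 in Control. Fbn1 and Myh11 each passed the count filter before the test only through the group where they were higher. The part of these markers in the collagen results was not tested. Control 1 stood apart from the other Control libraries. Its log2 CPM correlated across genes with those of Control 2 and Control 3 at 0.957 and 0.953, against 0.988 between Control 2 and Control 3. Control 1 was about as close to 3A 2, at 0.955. In chi-square per degree of freedom, Control 1 was nearer to 3A 1, 3A 2 and 3A 3 (163, 99.5 and 119) than to Control 2 and Control 3 (262 and 311). Within 3A, 3A 1 was the more distant library, with correlations of 0.985 and 0.982 against 0.994 between 3A 2 and 3A 3. With Control 2 and Control 3, 3A 1 correlated at 0.938 and 0.938, against 0.916 and 0.913 for 3A 2 and 0.912 and 0.910 for 3A 3. With Control 1 the order was the other way, at 0.946 for 3A 1 against 0.955 for 3A 2 and 0.951 for 3A 3. The share of counts on mitochondrially encoded mRNAs was 1.58%, 1.23% and 1.30% in 3A 1 to 3, and 1.16%, 4.16% and 4.69% in Control 1 to 3.

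Of the 43 collagen chain genes, 15 were detected, meaning that their counts were high enough for the filter before the test. Another 23 had between 1 and 43 counts over all 6 libraries and stayed below the filter, and 5 had none. Among the 15 tested genes 4 were higher in 3A and 1 was lower at an adjusted p under 0.05 (edgeR's quasi-likelihood test, Benjamini-Hochberg adjustment over 13704 genes). Over all tested genes 7.52% were called higher and 7.39% lower. The genes called higher were Col4a1, Col4a2, Col15a1 and Col26a1, and the gene called lower was Col27a1. Col15a1 and Col27a1 each passed the filter only through the group where they were higher. The median log2 fold change of the 15 genes was -0.23, against -0.016 over all tested genes. Libraries of the lines did not overlap for 8 of the 15 genes, with all of 3A above Control for 5 and below it for 3, against 36.1% of all tested genes. Without Control 1, 17 collagen genes passed the filter, of which 5 were called higher and 4 lower, shares near the background of 26.2% higher and 25.8% lower in that fit.

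**Figure D1:**
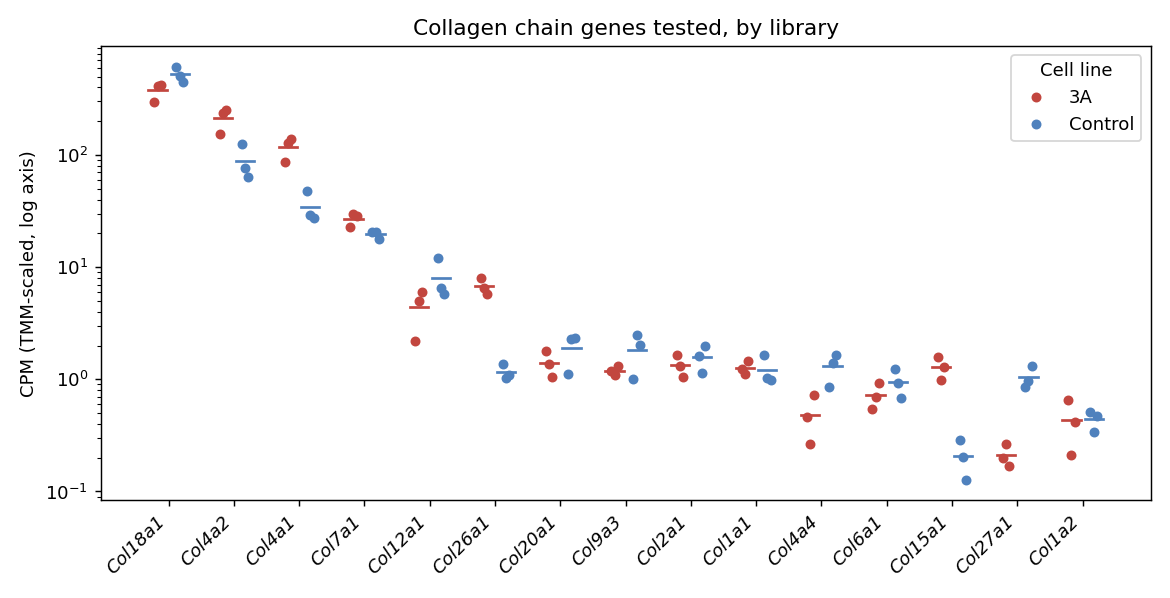
Level of each tested collagen chain gene in each library, in CPM on a log axis, with 3A left of Control for every gene; points are libraries and short lines are group means. Col18a1, Col4a2 and Col4a1 stood far above the rest, and the libraries of the lines were fully separated for Col4a1, Col4a2, Col26a1, Col15a1 and Col27a1, among others.

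Col4a1 and Col4a2, both called higher in 3A, encode the α1 and α2 chains that assemble together into the type IV collagen found in nearly all basement membranes. The genes lie head to head on mouse chromosome 8 (GRCm38), with Col4a1 at 11198423 to 11312826 on the minus strand and Col4a2 at 11312805 to 11449287 on the plus strand, so that their transcribed ends overlap by 22 bases. The stretch common to the promoter windows of both genes is shown because it holds the starts of 2 genes that were both called higher. It covers chr8:11312777-11312854, from RefSeq (GRCm38.p6), and is written 5′ to 3′ on the plus strand, the strand of Col4a2, with capitals marking CCCTCCCC and GGGCGG.
Col4a1-Col4a2: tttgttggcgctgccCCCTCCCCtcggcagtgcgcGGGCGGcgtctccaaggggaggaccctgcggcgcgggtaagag
Besides CCCTCCCC, the motif searches on both strands covered the GC box (GGGCGG), the CCAAT box and the TATA box (TATAAA), and no motif contains another. CCCTCCCC was present in 10.8% of 32851 RefSeq promoter windows of 300 bases. The GC box was present in 35.7% of these windows, the CCAAT box in 37.4% and the TATA box in 13.6%. A match describes letters only. The stretch is 73.1% G and C, and neither the CCAAT box nor the TATA box is in it. It has 78 bases near the starts and the windows have 300, so the shares above are not rates for such a stretch. Absence from the stretch does not cover bases further upstream.

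Col4a1 (ENSMUSG00000031502) had 86.1, 129 and 140 CPM in 3A 1 to 3, against 47.7, 29.1 and 27.3 CPM in Control 1 to 3. No Control library reached the lowest 3A library, with 3A 1 lowest among the 3A libraries and Control 1 highest among the Control libraries. The mean was 118 ± 28.5 CPM in 3A and 34.7 ± 11.3 CPM in Control (SD, n = 3 each), a 3.41-fold difference (log2 fold change 1.77, SE 0.29, edgeR adjusted p = 0.00841). It was called with any single library left out, with log2 fold changes from 1.62 to 2.08.

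Col4a2 (ENSMUSG00000031503) had 155, 236 and 253 CPM in 3A 1 to 3, against 126, 76.4 and 64.2 CPM in Control 1 to 3. The groups did not overlap, but 3A 1 and Control 1 lay close to each other. The mean was 215 ± 52.6 CPM in 3A and 88.9 ± 32.8 CPM in Control (SD, n = 3 each), a 2.41-fold difference (log2 fold change 1.27, SE 0.30, edgeR adjusted p = 0.0341). Its call depended on the libraries used: the edgeR adjusted p was 0.00144 without Control 1 and 0.0426 without 3A 1, but 0.133 without 3A 2, 0.138 without 3A 3, 0.127 without Control 2 and 0.102 without Control 3. With the mitochondrial share as a covariate, added after seeing the data, Col4a2 had a value of 0.78 on the log2 scale (edgeR adjusted p = 0.0547) and Col4a1 one of 1.33 (edgeR adjusted p = 0.00919). The share was 1.23% to 1.58% in 3A and 1.16% in Control 1, but 4.16% and 4.69% in Control 2 and 3. The covariate fit thus leans on Control 1 for the Control level.

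Within a library the level of Col4a1 relative to Col4a2 does not depend on scaling between libraries. Per kilobase of exon, the ratio of Col4a1 to Col4a2 was 0.493, 0.484 and 0.490 in 3A 1 to 3, and 0.335, 0.338 and 0.378 in Control 1 to 3. Col4a2 was thus the more abundant mRNA of the pair in every library, and the ratio was higher in all 3A libraries than in all Control libraries. Control 1, whose levels of both genes were the highest in its group, had the lowest ratio.

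The other type IV genes, whose chains build the more specialised α3α4α5 and α5α6 networks, were barely transcribed. Col4a4 had 0.458, 0.266 and 0.724 CPM in 3A 1 to 3, against 0.856, 1.40 and 1.66 CPM in Control 1 to 3. Its libraries did not overlap, yet it did not pass (log2 fold change -1.42, edgeR adjusted p = 0.0753), whereas it did without Control 1 (edgeR adjusted p = 0.0142) and by DESeq2 (adjusted p = 0.0315). Both of these fits called more genes in total than edgeR with all libraries. The partner genes of Col4a4 stayed below the filter: Col4a3 had 13 counts in 3A and 13 in Control, summed over 3 libraries each. Col4a5 had 2 counts in 3A and 3 in Control, and Col4a6 had 10 in 3A and 13 in Control. The summed level of the 6 type IV genes was 242 to 394 CPM in 3A and 93.5 to 175 CPM in Control.

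**Figure D2:**
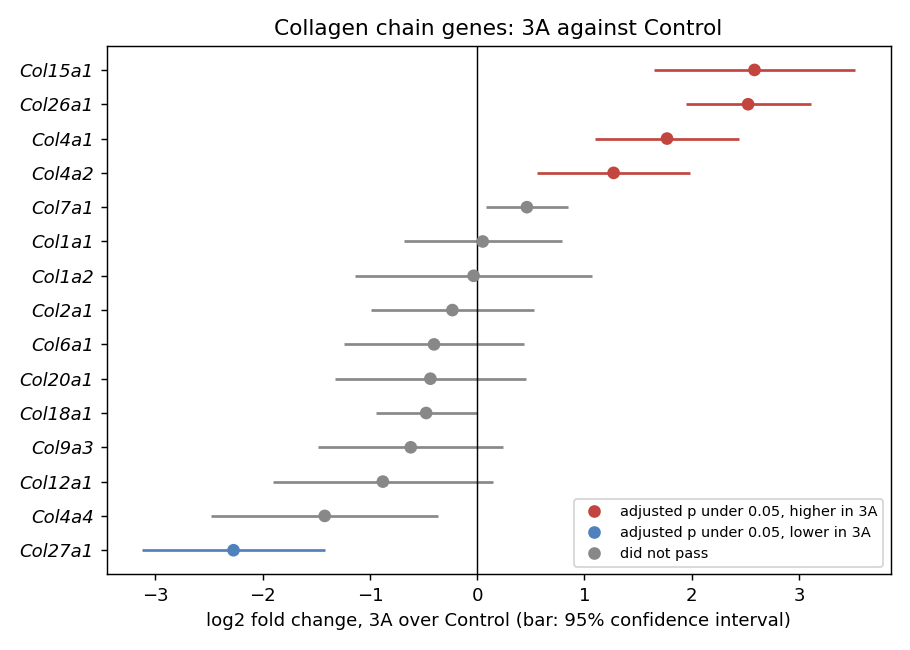
Log2 fold change of 3A over Control for the 15 tested collagen chain genes, with 95% confidence intervals from the edgeR fit; red genes passed the test and were higher in 3A, blue lower, grey did not pass. Col15a1 (2.59) and Col26a1 (2.53) had the highest values and Col27a1 (-2.27) the lowest. Col15a1 and Col27a1 each passed the count filter only through the group where they were higher.

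Col18a1 encodes the α1 chain of type XVIII collagen, a basement membrane proteoglycan whose C-terminal fragment is endostatin. It was the most abundant mRNA of the 43 genes in every library, a set that leaves out Col17a1. On the scale of CPM per kilobase of exon, Col18a1 had a mean level of 53.5 in 3A and 74.5 in Control, next to 32.5 in 3A and 13.4 in Control for Col4a2. On that scale Col4a1 had 15.9 in 3A and 4.65 in Control, and Col1a1 had 0.193 in 3A and 0.185 in Control. Col18a1 had 298, 409 and 421 CPM in 3A 1 to 3, against 614, 504 and 451 CPM in Control 1 to 3. Every 3A library lay below every Control library, but the closest pair, 3A 3 and Control 3, differed little, and the gene did not pass (log2 fold change -0.48, 95% confidence interval -0.95 to -0.0048, edgeR adjusted p = 0.144). With the mitochondrial share as a covariate, a fit that leans on Control 1, it passed (log2 fold change -0.72, edgeR adjusted p = 0.0287). The part of the mitochondrial share in these differences was not tested beyond this fit.

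The shares of Col18a1 and of the type IV pair in the summed level of the 43 genes did not overlap between the lines. Col17a1 is not in this sum, so these are not shares of all collagen mRNA. The shares were not tested and are given as a description. Per kilobase of exon, Col4a1 and Col4a2 together made up 44.8 ± 2.16% of the summed collagen level in 3A and 18.3 ± 2.95% in Control (SD, n = 3 each). Col18a1 made up 50.1 ± 1.26% in 3A and 77.0 ± 2.24% in Control. These 3 genes together held 93.9% to 95.6% in 3A and 94.7% to 96.0% in Control. Control 1, at 21.7% for the type IV pair, was nearer to the other Control libraries (16.8% and 16.3%) than to any 3A library (42.4% to 46.6%). The summed level of all 43 genes overlapped between the lines, at 583, 825 and 864 CPM in 3A 1 to 3 and 833, 651 and 580 CPM in Control 1 to 3.

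**Figure D3:**
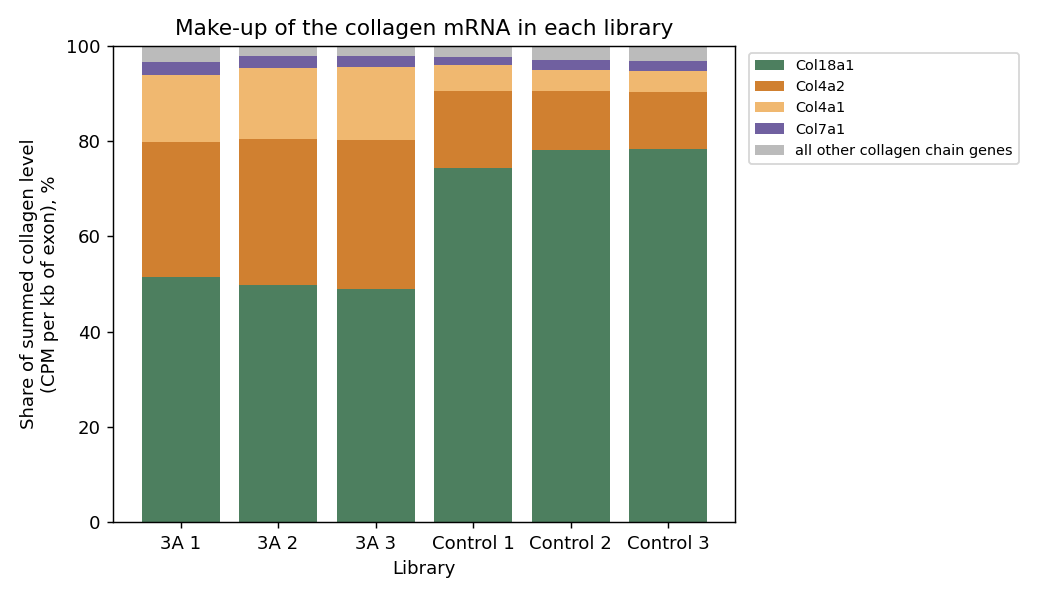
Share of the summed level of the 43 collagen chain genes, without Col17a1 (CPM per kilobase of exon), held by each gene. Each library has 1 bar, with 3A libraries to the left of Control. Col18a1 held 49.0% to 51.5% in the 3A libraries and 74.4% to 78.4% in the Control libraries.

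Col7a1, which encodes the chain of the anchoring fibril collagen, was the next gene in level. It had 23.0, 29.6 and 28.6 CPM in 3A 1 to 3, against 20.6, 20.5 and 17.7 CPM in Control 1 to 3. The 3A libraries lay above the Control libraries by a small margin, and the difference did not pass (log2 fold change 0.46, 95% confidence interval 0.08 to 0.85, edgeR adjusted p = 0.0968). Leaving out Control 1 brought it past the threshold (log2 fold change 0.51, edgeR adjusted p = 0.0328), as did DESeq2 (adjusted p = 0.0497). Both of these fits called more genes in total than edgeR with all libraries.

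Col26a1 and Col15a1 were low in level and had the largest fold changes among the tested collagen genes. Col26a1 (ENSMUSG00000004415, chromosome 5, 136741759 to 136883209, minus strand) encodes a short, little studied collagen first described in mouse testis and ovary. It had 7.99, 6.50 and 5.71 CPM in 3A 1 to 3, against 1.36, 1.03 and 1.10 CPM in Control 1 to 3, and the lowest 3A library was far above the highest Control library. The mean was 6.74 ± 1.16 CPM in 3A and 1.16 ± 0.18 CPM in Control (SD, n = 3 each; log2 fold change 2.53, SE 0.25, edgeR adjusted p = 0.00130). Col26a1 was called under every alternative run, the replicate block included.

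Col15a1 (ENSMUSG00000028339, chromosome 4, 47208161 to 47313167, plus strand) encodes type XV collagen, which with type XVIII forms the multiplexin family and lies next to basement membranes. It had 55, 37 and 46 counts in 3A 1 to 3, against 9, 6 and 3 counts in Control 1 to 3. In CPM these were 1.58, 0.986 and 1.28 in 3A and 0.285, 0.205 and 0.127 in Control, and the gene passed (edgeR adjusted p = 0.00695, log2 fold change 2.59, SE 0.40). The ratio of summed counts, scaled by library size, was 5.97 with a 95% exact binomial interval of 3.64 to 10.4, which covers counting error only. Col15a1 passed the low-count filter only through its 3A libraries.

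Col27a1 (ENSMUSG00000045672, chromosome 4, 63214004 to 63334991, plus strand) encodes a fibrillar collagen known from cartilage. It had 7, 10 and 6 counts in 3A 1 to 3, against 27, 28 and 31 counts in Control 1 to 3. The level was 0.21 ± 0.051 CPM in 3A and 1.04 ± 0.24 CPM in Control (SD, n = 3 each; log2 fold change -2.27, SE 0.36, edgeR adjusted p = 0.00800). Only 1 library of 3A reached 10 counts, so the gene passed the filter through Control, and the call was lost without 3A 3 (edgeR adjusted p = 0.0602). The 250 bases before the RefSeq starts of Col15a1 and Col27a1 (GRCm38.p6, plus strand, chr4:47207762-47208011 and chr4:63215162-63215411) are shown because these genes moved in opposite directions. The Col27a1 bases lie inside the GENCODE span of the gene, which begins at 63214004, so they are not upstream of that start. The Col15a1 bases end before the GENCODE start of Col15a1. The type IV stretch is shorter and lies across the starts, so it is not compared with these sequences. Any link between sequence and direction was not tested. Capitals mark GGGCGG, the only searched motif found in either.
Col15a1: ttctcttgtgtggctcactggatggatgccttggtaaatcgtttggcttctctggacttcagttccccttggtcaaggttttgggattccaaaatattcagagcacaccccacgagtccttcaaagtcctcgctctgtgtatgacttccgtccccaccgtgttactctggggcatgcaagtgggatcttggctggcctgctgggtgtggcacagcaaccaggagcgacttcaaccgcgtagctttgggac
Col27a1: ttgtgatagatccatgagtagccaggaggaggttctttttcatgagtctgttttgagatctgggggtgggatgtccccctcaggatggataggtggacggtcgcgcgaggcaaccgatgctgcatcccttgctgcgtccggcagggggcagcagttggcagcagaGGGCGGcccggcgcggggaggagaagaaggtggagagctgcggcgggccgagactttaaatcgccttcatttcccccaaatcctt
The Col15a1 sequence is 53.6% G and C and the Col27a1 sequence 59.6%. RefSeq windows were matched for 34 of the 43 genes.

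**Figure D4:**
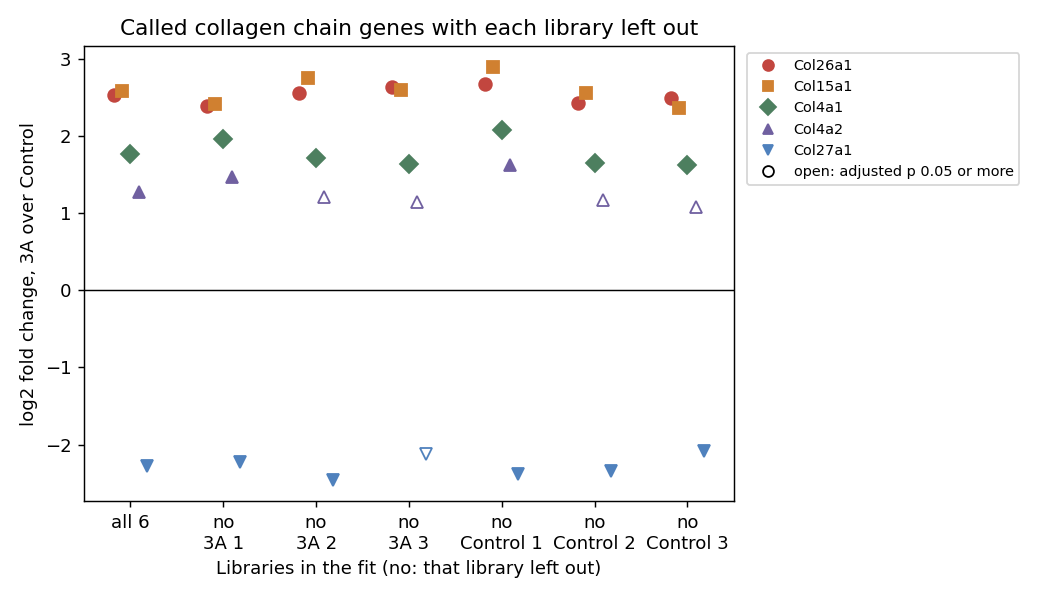
Log2 fold change of 3A over Control for the 5 called collagen chain genes, with all 6 libraries and with each library left out in turn; filled symbols had an adjusted p under 0.05. Col4a2 was open in 4 of the 6 reduced fits and Col27a1 in 1, without a change of direction.

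Fibrillar collagen genes, the main product of dermal fibroblasts, were nearly silent in both lines. Of 11 genes in this class 4 were tested, and the summed level of all 11 was 3.34 to 4.33 CPM in 3A and 4.44 to 5.67 CPM in Control. Col1a1 had 1.23, 1.12 and 1.45 CPM in 3A 1 to 3, against 1.65, 1.03 and 0.977 CPM in Control 1 to 3, and the groups overlapped (log2 fold change 0.051, 95% confidence interval -0.68 to 0.79, edgeR adjusted p = 0.921). Its partner chain gene Col1a2 had 46 counts in 3A and 37 in Control, and the cartilage collagen gene Col2a1 had 145 in 3A and 131 in Control. Neither Col1a2 (edgeR adjusted p = 0.968) nor Col2a1 (edgeR adjusted p = 0.631) passed. Below the filter, Col3a1 had 5 counts in 3A and 16 in Control. Col5a1, whose chain starts the assembly of type I fibrils, had 9 counts in 3A and 32 in Control.

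Type VI collagen, which forms beaded filaments from α1, α2 and a longer additional chain, was represented by Col6a1 alone among tested genes. Col6a1 had 78 counts in 3A and 82 in Control and did not pass (log2 fold change -0.40, edgeR adjusted p = 0.445). Col6a2 had 4 counts in 3A and 8 in Control, and Col6a3 had 5 in 3A and 8 in Control.

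Among fibril-associated collagens, which coat fibrils rather than build them, 3 of 9 genes were tested and none was called. Col12a1, a type XII gene linked to tissues under tension, had 2.18, 4.96 and 6.01 CPM in 3A 1 to 3, against 12.0, 6.46 and 5.73 CPM in Control 1 to 3. The groups overlapped, and the highest value was that of Control 1 (log2 fold change -0.88, edgeR adjusted p = 0.196). Leaving out Control 1 gave -0.46 (edgeR adjusted p = 0.325). With the mitochondrial share as a covariate, a fit that leans on Control 1, it was -1.45 (edgeR adjusted p = 0.0372). Col9a3 (log2 fold change -0.62) and Col20a1 (-0.44) also did not pass (edgeR adjusted p = 0.265 and 0.432). Without Control 1 Col9a3 was called lower (log2 fold change -0.91, edgeR adjusted p = 0.0267). With the mitochondrial covariate both turned sign, to 0.11 for Col9a3 and 0.28 for Col20a1, and neither passed. Of Col9a3, 6.07% of the exon bases also lie in exons of Tcfl5, so some of its reads may belong to that gene. Col22a1, below the filter, had 30 counts in 3A and 13 in Control.

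The transmembrane collagen genes Col13a1, Col23a1 and Col25a1 and the short-chain network genes Col8a1, Col8a2 and Col10a1 were all below the filter. Col8a1 had 4 counts in 3A and 17 in Control, and Col8a2 had 15 in 3A and 5 in Control. Col6a6, Col9a1, Col13a1, Col19a1 and Col28a1 had no count in any library. A count of 0 over 3 libraries allows up to 3 counts, which is 0.0277 CPM in 3A and 0.0356 CPM in Control.

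Genes that modify, fold, trim and crosslink collagen chains were read from a list of 40, of which 26 were tested. Of these, 2 were called higher and 3 lower in 3A, against 7.52% higher and 7.39% lower over all tested genes. The median log2 fold change of the 26 genes was -0.10. Pcolce2, an enhancer of procollagen C-propeptide cleavage, had 8.20, 8.37 and 8.16 CPM in 3A 1 to 3, against 1.97, 1.40 and 1.57 CPM in Control 1 to 3 (log2 fold change 2.32, SE 0.21, edgeR adjusted p = 0.00106). Adamts14, a procollagen N-proteinase gene, had 6.10, 10.9 and 10.6 CPM in 3A 1 to 3, against 1.71, 0.752 and 1.10 CPM in Control 1 to 3 (log2 fold change 2.94, edgeR adjusted p = 0.00385). Both proteins are known to act on propeptides of fibrillar collagens.

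The genes lower in 3A from this list were Tgm2, Plod3 and P3h1. Tgm2, a transglutaminase that crosslinks matrix proteins, had 8.97, 10.6 and 8.83 CPM in 3A 1 to 3, against 61.7, 45.2 and 46.0 CPM in Control 1 to 3 (log2 fold change -2.43, SE 0.19, edgeR adjusted p = 0.000593). Plod3, a lysyl hydroxylase that also glycosylates type IV collagen, had 40.5, 39.5 and 39.2 CPM in 3A 1 to 3, against 64.4, 65.8 and 59.2 CPM in Control 1 to 3 (log2 fold change -0.67, edgeR adjusted p = 0.0172). P3h1, a prolyl hydroxylase, had 0.401, 0.453 and 0.418 CPM in 3A 1 to 3, against 1.11, 1.30 and 1.02 CPM in Control 1 to 3 (log2 fold change -1.42, edgeR adjusted p = 0.0190). Tgm2 was called with any single library left out. The call of Plod3 was lost without 3A 1, 3A 2, 3A 3 or Control 2, and that of P3h1 also without Control 3. Both were also lost with no low-count filter. Serpinh1, the collagen chaperone HSP47, stayed below the filter, with a highest value of 0.172 CPM.

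Collagen receptors were read from a list of 12, of which 7 were tested. Only Ddr2 passed by edgeR, against 14.9% of all tested genes called in either direction. DESeq2 also called Itga2 higher and Ddr1 lower, in a fit that called 1678 of 13704 genes higher and 1887 lower. Without Control 1, Ddr2, Itga2, Cd44 and Itgb1 were called higher and Ddr1 lower, in a fit that called 26.2% of all tested genes higher and 25.8% lower. Ddr2, a receptor tyrosine kinase activated by fibrillar collagen, had 42.6, 69.3 and 86.1 CPM in 3A 1 to 3, against 24.9, 13.6 and 13.1 CPM in Control 1 to 3 (log2 fold change 1.94, SE 0.35, edgeR adjusted p = 0.0130). It was not called without 3A 2, 3A 3 or Control 2. Its relative Ddr1, which also binds type IV collagen, had 62.0, 63.7 and 56.6 CPM in 3A 1 to 3, against 78.4, 83.6 and 83.2 CPM in Control 1 to 3, and did not pass by edgeR (log2 fold change -0.43, adjusted p = 0.0711). Itga2, the collagen-binding integrin subunit of keratinocytes, had 2.66, 11.5 and 12.6 CPM in 3A 1 to 3, against 4.69, 1.06 and 0.892 CPM in Control 1 to 3. These values overlapped through 3A 1 and Control 1, and the gene did not pass (log2 fold change 1.99, edgeR adjusted p = 0.124). Of 12 collagen-cleaving protease genes 7 were tested and 1, Mmp13, passed by edgeR, against the same 14.9% of all tested genes. The same DESeq2 fit also called Mmp2 lower. The collagenase gene Mmp13 had 7.54, 11.4 and 20.2 CPM in 3A 1 to 3, against 2.54, 1.37 and 1.83 CPM in Control 1 to 3 (log2 fold change 2.77, SE 0.42, edgeR adjusted p = 0.00679).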

How the data were processed

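The authors deposited raw counts of reads per gene, as whole numbers, under mouse Ensembl IDs. The submitters' processing notes list Trim Galore, featureCounts, edgeR and limma, beside the genome builds GRCh38, hg38 and mm10, and give neither version nor role. For the aligner, annotation release and strand setting, nothing is given in the sources used here. GENCODE M21 (GRCm38, which mm10 follows) supplied symbols, positions and union exon lengths for 49056 of 49315 IDs. Group was the only term in edgeR 4.0.16 (R 4.3.3), with filterByExpr, TMM scaling, glmQLFit and glmQLFTest. Benjamini-Hochberg adjustment ran over 13704 genes with a threshold of 0.05. CPM values use TMM-scaled library sizes. DESeq2 1.42.0 and limma-voom (limma 3.58.1), other scalings and filters, and leaving out each library were alternatives. The test was tested on simulated data first. It recovered 24% of the genes changed 2-fold and 84% of those changed 4-fold, and 2 of 110 calls were false. A gene that did not pass may therefore still differ. No replicate pair agreed within sampling noise (chi-square per degree of freedom at least 15.7). Every collagen chain gene could be named, and from the other lists called members and partners of described genes. The members and lists were chosen with earlier results of these data known.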

Additional observations from a re-analysis of the deposited data

How the results depend on the processing

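Of the collagen chain genes, 4 were higher and 1 lower in 3A with all libraries. Leaving out 1 library gave 3 to 5 higher and 0 to 4 lower. Of these fits, the one without Control 1 had the most calls, adding Col7a1 to the higher genes and Col4a4, Col9a3 and Col11a2 to the lower ones. DESeq2 called 2 collagen genes lower, a minimum of 1 CPM in 3 libraries left 0 lower because Col27a1 was not tested, and the mitochondrial share as a covariate, added after seeing the data, gave 3 lower. Over all genes, 1031 were higher and 1013 lower, against 1678 and 1887 by DESeq2. Leaving out 1 library gave 346 to 3751 higher and 318 to 3690 lower. For biosynthesis genes these fits gave 2 to 6 higher and 1 to 6 lower, and no low-count filter gave 1 lower. For receptors they gave 0 to 4 higher and 0 to 1 lower, and DESeq2 gave 2 and 1. For collagen-cleaving proteases, whose alternatives were added after seeing the data, they gave 1 to 2 higher and 0 to 2 lower, and DESeq2 gave 1 lower. The replicate numbers did not pair the libraries. Deviations from the group means of same-numbered libraries correlated at -0.66, -0.42 and -0.37, and no library correlated best with its own number. With the replicate block 1 collagen gene (Col26a1) was higher and 0 lower, 142 and 146 of all genes, 1 and 1 biosynthesis genes, and 0 receptors and 0 proteases higher. The median log2 fold change of the tested collagen genes ran from -0.32 to -0.078 with 1 library left out, and was 0.044 at a minimum of 1 CPM in 3 libraries, where fewer genes were tested. Signs turned only for genes that were not called: with the mitochondrial covariate Col1a1 (-0.33), Col20a1 (0.28) and Col9a3 (0.11), by library size only Col1a2 (0.027), and with 1 library left out Col1a1 (-0.081 to 0.35) and Col1a2 (-0.47 to 0.30). Of the 28 genes below the filter, those with counts had at most 43 over all libraries. With no low-count filter 38 collagen genes were tested, and the calls were the same 5 genes. The causes of these differences between settings were not tested.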

Other observations

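The protein-coding genes that flank the called collagen genes were looked up after the calls were known. Over all tested genes 14.9% were called in either direction. Any link between the flanking genes and the collagen calls was not tested. Orm1, an acute-phase glycoprotein gene 9568 bases beyond the higher-numbered end of Col27a1, was lower in 3A. Its level was 6.16 CPM in 3A and 18.7 CPM in Control (means, n = 3 each; log2 fold change -1.60, edgeR adjusted p = 0.0145). Tgfbr1, a TGF-beta receptor gene 40054 bases from Col15a1, was higher, at 133 CPM in 3A and 59.1 CPM in Control (log2 fold change 1.17, edgeR adjusted p = 0.0444). On their other sides, Galnt12, beside Col15a1, had 2.39 CPM in 3A and 2.02 CPM in Control and did not pass (log2 fold change 0.23, edgeR adjusted p = 0.669), and Kif12, beside Col27a1, had 0 counts in all libraries. Beside the type IV pair, Rab20 lies 4230 bases beyond Col4a2 and had 32.0 CPM in 3A and 25.9 CPM in Control, and it did not pass (log2 fold change 0.31, edgeR adjusted p = 0.403). Irs2, on the other side of Col4a1, had 106 CPM in 3A and 82.5 CPM in Control and did not pass either (log2 fold change 0.36, edgeR adjusted p = 0.176). Nor did Myl10 (log2 fold change 0.71) and Ift22 (0.20), the neighbours of Col26a1 (edgeR adjusted p = 0.307 and 0.365).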
